A study of Mus musculus with 12 samples.

Results

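The genes described here encode the enzymes, and 1 activating protein, that make prostaglandins and leukotrienes from arachidonic acid. They are Pla2g4a, Pla2g4b, Ptgs1, Ptgs2, Ptges, Hpgds, Alox5, Alox5ap, Lta4h and Ltc4s, which are 10 of the 29737 genes in the deposited count table. They were taken by name and were chosen by their CPM with Tβ-MCA and PBS, in which Hpgds and Pla2g4b were higher with Tβ-MCA. The values of the 10 genes with Tβ-MCA are therefore given as a description with no test.

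Neutrophils from the bone marrow of mice with the genotype WT were cultured for 24 h, and the mRNA of 12 samples in 4 groups of 3 was sequenced. The groups were PBS as the control, TCA at 200 μM, GCA at 200 μM and Tβ-MCA at 10 μM, as the labels give the doses, whereas the methods of the study name 1 common dose for the bile acids. TCA and GCA are the taurine and glycine conjugates of cholic acid, and Tβ-MCA is the taurine conjugate of a muricholic acid. According to the labels the cells were Ly6G+ and sorted with magnetic beads, and the methods name a separating medium and an enrichment kit. All groups share the cell source, the culture and the time. A legend of the study speaks of biologically independent experiments for the figure that shows these cells, but the labels tie no sample to a mouse or culture, so p-values measure the spread between these samples only, which may in part be technical. Values are in CPM, the usual scaling of counts to a common library size, with library sizes adjusted by edgeR's TMM method, unless RPKM is named.

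Total counts lay between 32757389 and 41375925 per sample, so that 3 counts, taken as the limit of detection, were 0.0725 to 0.0931 CPM. This limit covers counting error only and takes each count as a separate event. All 12 listed neutrophil markers were detected, and their summed level was between 39880 and 61350 CPM in the 12 samples. Of the 12 basophil and mast cell markers 10 were in the table and summed to between 140 and 293 CPM, with Mcpt4 and Cma1, which mark mast cells, under the limit in all samples.

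In this pathway a cytosolic phospholipase A2 releases arachidonic acid from membrane phospholipids. Cyclooxygenases turn it into a common prostaglandin precursor, which terminal synthases convert to single prostaglandins, and 5-lipoxygenase with its activating protein makes the unstable leukotriene A4, from which the chemoattractant leukotriene B4 or the cysteinyl leukotrienes arise. Neutrophils are known as a main source of leukotriene B4.

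The reference sequence before the start is shown for the synthase Hpgds and the inducible cyclooxygenase Ptgs2, whose levels varied most over the samples, and for the steady lipoxygenase Alox5. RefSeq promoters (GRCm38.p6) were at hand for 8 of the 10 genes, and for Pla2g4b and Alox5ap none was. Each sequence is the 250 bases before the RefSeq start, 5′ to 3′ on the gene's strand, and capitals mark matches to the motifs searched. The Hpgds sequence is at chr6:65144731-65144980 (minus strand), that of Ptgs2 at chr1:150099781-150100030 (plus strand) and that of Alox5 at chr6:116461179-116461428 (minus strand). The start of Hpgds in the deposited table, 65144908, lies inside its window.
Hpgds: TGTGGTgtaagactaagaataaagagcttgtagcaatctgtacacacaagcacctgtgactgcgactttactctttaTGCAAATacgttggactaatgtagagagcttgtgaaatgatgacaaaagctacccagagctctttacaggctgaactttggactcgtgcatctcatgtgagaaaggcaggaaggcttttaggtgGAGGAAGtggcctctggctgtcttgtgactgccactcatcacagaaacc
Ptgs2: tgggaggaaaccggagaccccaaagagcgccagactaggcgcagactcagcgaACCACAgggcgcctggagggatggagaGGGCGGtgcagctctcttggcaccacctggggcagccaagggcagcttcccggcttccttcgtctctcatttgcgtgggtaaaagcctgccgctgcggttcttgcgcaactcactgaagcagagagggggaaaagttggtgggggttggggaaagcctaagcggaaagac
Alox5: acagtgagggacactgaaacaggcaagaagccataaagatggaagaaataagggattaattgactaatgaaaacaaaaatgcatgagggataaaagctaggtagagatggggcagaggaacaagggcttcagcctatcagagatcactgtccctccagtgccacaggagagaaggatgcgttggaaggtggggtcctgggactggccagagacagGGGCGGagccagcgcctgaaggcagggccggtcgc

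The 8 short motifs were searched on both strands, and the share of all 32851 promoters of this length with each was counted. Hpgds held GAGGAAG, the core bound by PU.1 and other ETS factors, which 10.6% of all promoters held. It also held TGTGGT (14%), a RUNX site, and TGCAAAT (3.6%), an octamer core. Its GAGGAAG and TGCAAAT matches lie inside Hpgds as the deposited table places the gene, and its TGTGGT match lies before that start. Ptgs2 held TGTGGT on the opposite strand and the GC box GGGCGG, and Alox5 held GGGCGG, which 32.7% of all promoters held. The other motifs searched were CACGTG (6.0%), TGACG (17.8%), TATAAA (12.4%) and TGAGTCA (4.5%), and no match to them was found in these 3 windows. Among the promoters not shown, Ptgs1 also held GAGGAAG, Ltc4s held TGTGGT, Ptges held GGGCGG and a Pla2g4a window held TATAAA. No motif matches overlapped each other. A match describes letters in the window and not a bound site.

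The genes spanned a wide range of levels, and the leukotriene B4 branch held the highest of them. Compared per length of the merged exons, as RPKM over all 12 samples, the order was Alox5ap (788 ± 36.8, SD, n = 12), Alox5 (62.8 ± 2.56), Lta4h (47.5 ± 4.74), Ptgs1 (21.3 ± 1.22), Hpgds (4.73 ± 3.22), Ptges (2.27 ± 0.371), Pla2g4a (2.27 ± 0.186), Ltc4s (0.523 ± 0.167), Ptgs2 (0.128 ± 0.0829) and Pla2g4b (0.0965 ± 0.0529). The sample ranges of Alox5 and Lta4h overlapped, and so did those of Hpgds and Ptges, of Ptges and Pla2g4a, of Ltc4s and Ptgs2, and of Ptgs2 and Pla2g4b. Alox5ap, Lta4h, Ptgs1 and Pla2g4a each lay apart from the next gene down. The order by the median RPKM of the PBS samples was the same.

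**Figure D1:**
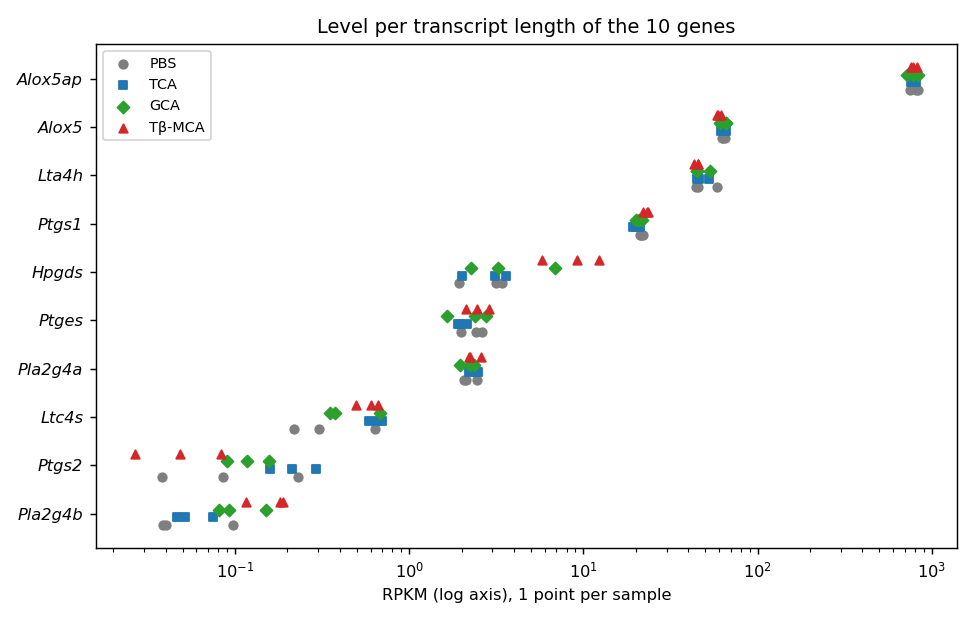
RPKM of the 10 genes on a log axis, with 1 point per sample and the groups in color. Alox5ap lies highest between 718 and 837 RPKM, and the Hpgds points spread from 1.93 to 12.2 RPKM with the Tβ-MCA samples on the right.

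The 3 genes with the widest relative spread over the samples were Hpgds, Ptgs2 and Pla2g4b. The coefficient of variation of CPM was 66.0% for Hpgds, against a median of 8.50% in genes of like level. It was 64.8% for Ptgs2 against 32.2%, and 53.1% for Pla2g4b against 33.3%, in both cases for genes with few counts. It was 4.54% for Alox5ap, 5.01% for Ptgs1 and 5.65% for Alox5, and the median over all genes tested was 13.9%. The genes were chosen knowing that Hpgds and Pla2g4b were higher with Tβ-MCA, and those samples are part of this spread. The spread of both is therefore not independent of that choice.

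Pla2g4a (chr1:149829618-149961290, minus strand) encodes the main cytosolic phospholipase A2 that releases arachidonic acid. Its level stayed between 12.6 and 16.3 CPM in all 12 samples, and the groups overlapped. The log2 fold change of Tβ-MCA against PBS was 0.04 (SE 0.11).

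Pla2g4b (chr2:120033417-120043030, plus strand) encodes a related cytosolic phospholipase A2, and few reads were counted on it. It had 8, 8 and 21 counts in PBS replicates 3, 5 and 6 (0.230, 0.235 and 0.566 CPM). With TCA it had 0.310, 0.435 and 0.271 CPM in replicates 3, 4 and 5, and with GCA 0.479, 0.859 and 0.545 CPM. With Tβ-MCA it had 36, 38 and 25 counts (1.08, 1.03 and 0.669 CPM). Every Tβ-MCA sample was above every PBS and TCA sample, and the lowest of them, replicate 5, was below GCA replicate 4. The group means were 0.344 ± 0.193 (SD, n = 3) with PBS, 0.339 ± 0.0858 with TCA, 0.628 ± 0.203 with GCA and 0.924 ± 0.222 with Tβ-MCA, and the fitted level with Tβ-MCA was 2.64-fold that with PBS (log2 fold change 1.40, SE 0.41). Without PBS replicate 6 the log2 fold change was 1.97.

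Reads of Pla2g4b could not be separated from those of Gm28042, an annotated readthrough gene on the same strand that shares exon bases with it and with the neighboring Jmjd7. Gm28042 had 1.53 to 2.7 times the counts of Pla2g4b, and the log2 CPM of both genes correlated with r = 0.938 over the 12 samples, a description since overlapping exons can share reads. Gm28042 was 0.402, 0.530 and 0.917 CPM with PBS and 1.65, 1.78 and 1.12 CPM with Tβ-MCA, groups that did not overlap. The fitted log2 fold changes with Tβ-MCA against PBS were 1.29 (SE 0.35) for Gm28042 and 1.20 (SE 0.42) for Jmjd7, given with no test since these genes lie at the locus of Pla2g4b and can share its reads, directly or through Gm28042.

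Ptgs1 (chr2:36230426-36252272, plus strand), the constitutive cyclooxygenase, was between 74.6 and 88.1 CPM in all samples. Ptgs2 (chr1:150100031-150108227, plus strand), the inducible cyclooxygenase, was far lower per length. It had 14, 6 and 39 counts in the PBS samples, 24, 55 and 36 in those with TCA, 26, 14 and 21 in those with GCA and 4, 8 and 14 in those with Tβ-MCA. This came to 0.402, 0.177 and 1.05 CPM with PBS, 0.744, 1.33 and 0.975 CPM with TCA, 0.732, 0.401 and 0.545 CPM with GCA and 0.120, 0.216 and 0.375 CPM with Tβ-MCA. The Tβ-MCA samples lay below all TCA and all GCA samples and overlapped PBS, among which replicate 6 stood highest. The log2 fold change of Tβ-MCA was -2.08 (SE 0.55) against TCA and -1.19 (SE 0.58) against PBS, and the latter became -0.27 without PBS replicate 6.

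Ptges (chr2:30889471-30929863, minus strand), which makes prostaglandin E2, was between 6.56 and 10.9 CPM with overlapping groups. Hpgds (chr6:65117293-65144908, minus strand) encodes the hematopoietic synthase of prostaglandin D2, known from mast cells, eosinophils and antigen-presenting cells. It was 12.7, 20.5 and 21.8 CPM with PBS, 13.2, 23.0 and 19.8 CPM with TCA, 14.8, 43.5 and 21.0 CPM with GCA and 57.7, 76.3 and 36.6 CPM with Tβ-MCA. The Tβ-MCA samples stood above all PBS and TCA samples, while GCA replicate 4 stood above Tβ-MCA replicate 5. The means were 18.4 ± 4.94 (SD, n = 3) with PBS, 18.7 ± 4.99 with TCA, 26.4 ± 15.1 with GCA and 56.9 ± 19.8 with Tβ-MCA. The fitted level with Tβ-MCA was 3.10-fold that with PBS (log2 fold change 1.63, SE 0.45) and 3.04-fold that with TCA (log2 1.60, SE 0.45). Leaving out 1 sample moved the former between 1.36 (without Tβ-MCA replicate 4) and 1.87 (without Tβ-MCA replicate 5).

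**Figure D2:**
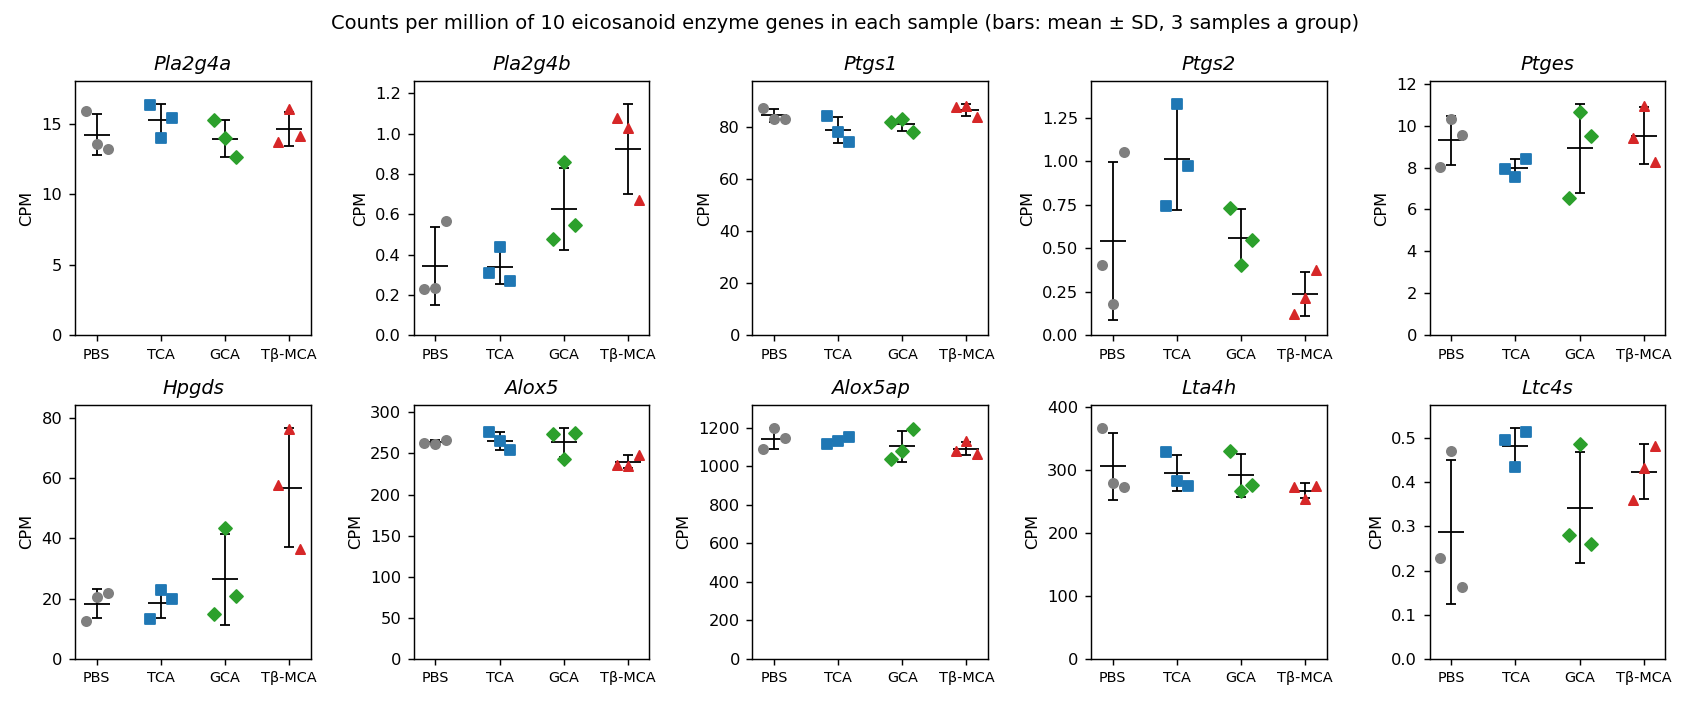
CPM of the 10 genes in each sample, with 1 panel per gene, points for samples, and a horizontal bar with whiskers for the mean ± SD of 3 samples. The Hpgds and Pla2g4b points of Tβ-MCA lie above those of PBS and TCA, whereas the Alox5ap, Ptgs1 and Alox5 points of all groups lie close together.

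Among the leukotriene enzymes, Alox5 (chr6:116410077-116461178, minus strand), the 5-lipoxygenase, was 263, 261 and 266 CPM with PBS, 277, 265 and 254 CPM with TCA, 273, 243 and 274 CPM with GCA and 236, 235 and 249 CPM with Tβ-MCA. The Tβ-MCA samples lay just below all PBS and TCA samples, with a log2 fold change of -0.14 (SE 0.06) against PBS. Its activating protein Alox5ap (chr5:149264767-149288153, plus strand) was 1037 to 1199 CPM in the 12 samples, and Lta4h (chr10:93453411-93484875, plus strand), the hydrolase that makes leukotriene B4, was 254 to 367 CPM. The groups overlapped for both. Ltc4s (chr11:50236469-50238616, minus strand), the synthase of cysteinyl leukotriene C4, had 6 to 19 counts per sample (0.162 to 0.514 CPM).

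For 3 further genes an annotated gene on the opposite strand shared exon bases, and no source used here states whether the counting used the strand. Gm19719 had 0.611 to 0.634 of the counts of Alox5ap, and the log2 CPM of both correlated with r = 0.983 over the 12 samples. Gm43621 had 0.243 to 0.331 of the counts of Ptgs1, and Gm26542 had 0.765 to 2.17 times those of Ltc4s. Reads of each pair cannot be told apart, and their part in the values was not tested.

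**Figure D3:**
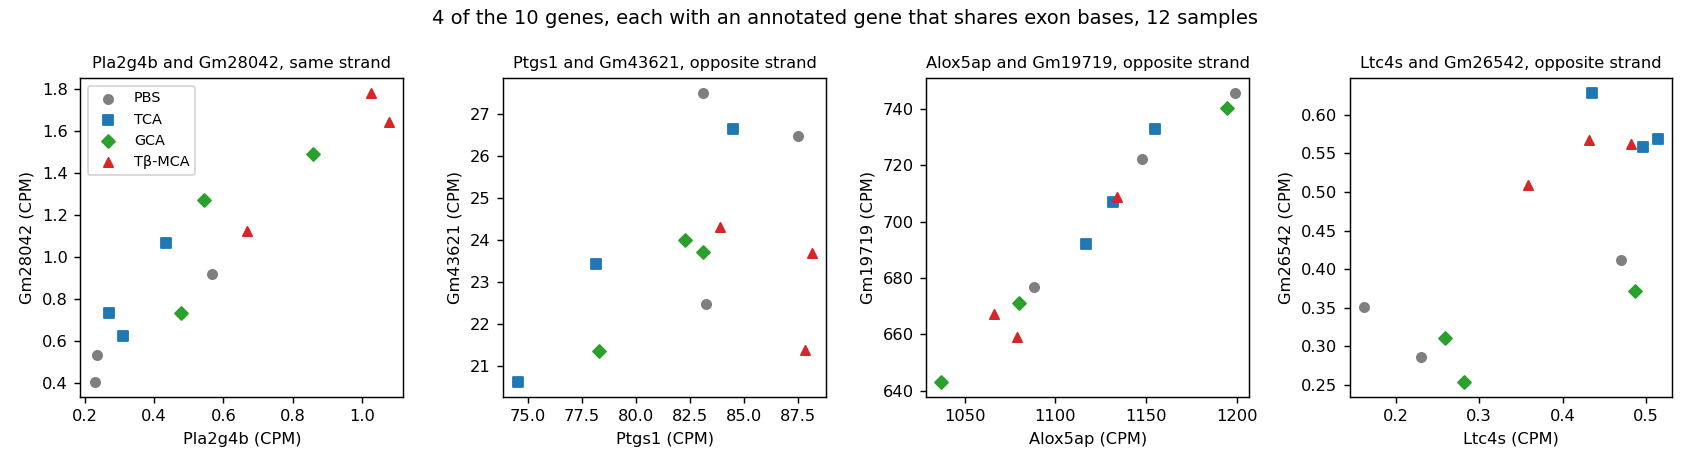
CPM of 4 genes (x axes) against CPM of the annotated gene that shares exon bases with each (y axes), with 1 point per sample and groups in color, on axes that do not start at 0. The Alox5ap and Gm19719 points lie close to a line.

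Tβ-MCA against PBS was a contrast used to choose the genes. In it the samples did not overlap for 2 of the 10 genes above PBS (Hpgds and Pla2g4b) and for 1 below (Alox5). Of the 16761 genes tested, 14.1% lay above and 12.8% below without overlap. With Tβ-MCA against TCA, 2 genes lay above and 2 below (Ptgs2 and Alox5), against 13.3% and 12.1% of all genes, and the doses of this pair differ by the labels. The remaining members had log2 fold changes between -0.20 (Lta4h) and 0.57 (Ltc4s) against PBS, apart from Ptgs2. That of Lta4h was -0.04 without PBS replicate 3, and that of Ltc4s was 1.11 without PBS replicate 5 and 0.28 without PBS replicate 6. The median over the 10 genes was 0.03, and over all genes it was 0.00411.

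The other bile acids gave tests that hold no Tβ-MCA sample, although those against PBS share the PBS samples with Tβ-MCA against PBS. The CPM of all 4 groups was at hand when the genes were chosen, so these tests are not independent of that choice. None of the 10 genes was called for TCA against PBS, for GCA against PBS or for GCA against TCA, which are at 1 dose (edgeR's quasi-likelihood test, adjusted p of at least 0.9987 for each gene), and none had an unadjusted p under 0.05. Over all genes 0% were called by adjusted p in each of these comparisons, while 546, 591 and 412 genes (3.26%, 3.53% and 2.46%) had an unadjusted p under 0.05. DESeq2 also called none of the 10 genes. Without overlap between groups were 0 of the 10 genes for TCA against PBS (9.67% of all genes), 1 for GCA against PBS (Ptgs1 below, 9.55%) and 2 for GCA against TCA (Pla2g4b above, Ptgs2 below, 8%).

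The intervals of these differences were wide for the 4 genes with the most variable or fewest counts. For Hpgds the log2 fold change was 0.03 for TCA against PBS (95% interval -1.01 to 1.06), 0.52 for GCA against PBS (-0.50 to 1.55) and 0.50 for GCA against TCA (-0.53 to 1.52). Without GCA replicate 4 the last 2 values were -0.04 and -0.06. For Pla2g4b the log2 fold change was -0.02 for TCA against PBS (-0.97 to 0.93), 0.85 for GCA against PBS (-0.05 to 1.74) and 0.87 for GCA against TCA (-0.02 to 1.76). For Ptgs2 it was 0.89 for TCA against PBS (-0.16 to 1.95), 0.03 for GCA against PBS (-1.08 to 1.14) and -0.87 for GCA against TCA (-1.92 to 0.18). For Ltc4s it was 0.75 (-0.18 to 1.68), 0.26 (-0.71 to 1.22) and -0.49 (-1.40 to 0.42) in the same order. Single PBS samples moved the values for TCA and GCA against PBS, which without replicate 6 were 0.55 and 1.42 for Pla2g4b and 1.81 and 0.94 for Ptgs2, and without replicate 5 were 1.29 and 0.80 for Ltc4s. None of these passed the test either.

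The high genes had narrow intervals. For Alox5 the 95% interval of the log2 fold change was -0.12 to 0.14 for TCA against PBS, -0.13 to 0.13 for GCA against PBS and -0.14 to 0.12 for GCA against TCA. For Alox5ap it was -0.15 to 0.13, -0.19 to 0.09 and -0.18 to 0.10 in that order, and for Ptgs1 -0.23 to 0.04, -0.19 to 0.07 and -0.09 to 0.17.

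**Figure D4:**
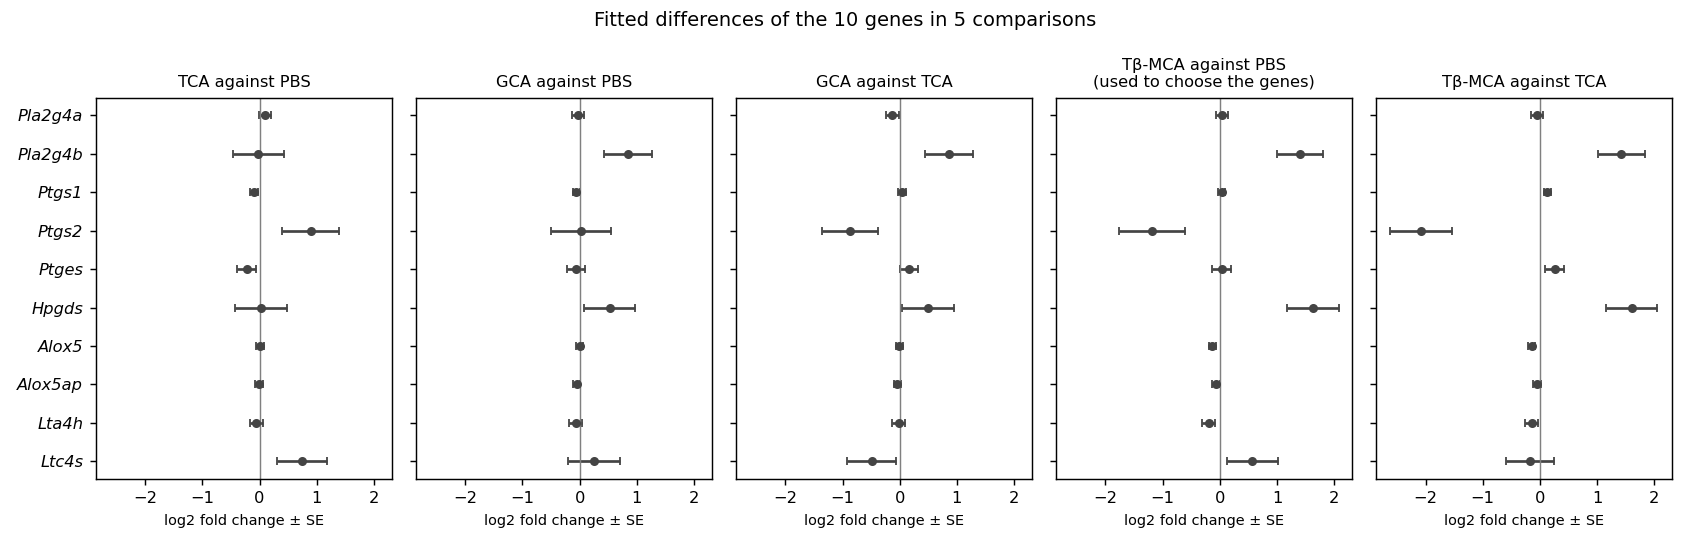
Fitted log2 fold changes ± SE of the 10 genes in the 5 comparisons, where values above 0 are higher in the group named first. Hpgds and Pla2g4b lie at 1.63 and 1.40 for Tβ-MCA against PBS, a comparison used to choose the genes. All Alox5, Alox5ap, Ptgs1 and Pla2g4a values lie close to 0.

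Markers of several cell types moved with Tβ-MCA beside Hpgds. The summed level of the 9 eosinophil markers was 164 to 289 CPM with PBS and 64.6 to 147 CPM with Tβ-MCA, where 1 of the 9 was called lower and 5 lay below PBS without overlap, against 3.18% and 12.8% of all genes. For the basophil and mast cell list the sums were 222 to 293 CPM with PBS and 140 to 188 CPM with Tβ-MCA, with 1 of the 8 tested called lower and 3 below without overlap. Most of each sum was Hdc, at 208, 187 and 171 CPM with PBS and 73.8, 92.4 and 135 CPM with Tβ-MCA. The groups also did not overlap for Mcpt8 and Prss34, and they overlapped for Cpa3, Fcer1a, Ms4a2, Gata2 and Kit. The neutrophil sums were 49700 to 61350 CPM with PBS and 39880 to 45290 CPM with Tβ-MCA, with 5 of 12 markers called lower and 10 below without overlap. Those of monocytes and macrophages were 2190 to 2338 and 1231 to 2011 CPM, where none of 12 was called, 6 lay below without overlap and the median log2 fold change was -0.77. None of these lists had a marker called higher. Over the 12 samples the log2 CPM of Hpgds correlated with the log2 sums with r = -0.987 for basophils and mast cells, -0.957 for eosinophils, -0.947 for neutrophils, -0.916 for dendritic cells, -0.797 for monocytes and macrophages, -0.761 for B cells, -0.48 for megakaryocytes and platelets, -0.468 for T and NK cells and 0.414 for erythroid cells, as a description of values that share the libraries. Hpgds was chosen for its level with Tβ-MCA, and most of these sums were lower there, so the r values are not independent of that choice. No r with the group means subtracted was calculated for the sums. In bulk RNA, fewer cells of a type and less RNA per cell cannot be told apart, and the part of the marker shifts in the Hpgds values was not tested.

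The genes whose log2 CPM followed that of Hpgds most closely over the 12 samples were Atp13a2 (r = 0.986), Slc26a11 (0.985), Dnase2a (0.984), Gm10252 (0.98) and Rassf6 (0.977). With the group means subtracted these values were 0.943 to 0.978. For Pla2g4b they were Atp8a2 (0.959), Vegfb (0.94), Gm28042 (0.938), Gga2 (0.933) and B4galt5 (0.933). With the group means subtracted the values for Pla2g4b were 0.931, 0.836, 0.891, 0.795 and 0.807 in the same order. Among the 10 genes, Hpgds correlated with Pla2g4b with r = 0.865 and with Alox5 with r = -0.904. All of these are descriptions over 12 samples that include the Tβ-MCA samples.

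Of 100 further genes of arachidonic acid release, reacylation, eicosanoid synthesis, breakdown, transport and reception, 92 were listed and 67 passed the filter on low counts. With Tβ-MCA against PBS 1 of the 67 rose and 5 fell (Benjamini-Hochberg adjusted p under 0.05 in edgeR), against 4.44% of all genes higher and 3.18% lower. The median log2 fold change was -0.14 over the 67 genes and 0.00411 over all genes, and 22 of the 67 were above 0. The count was 14 without Tβ-MCA replicate 5, 3 without PBS replicate 6, and 0 without any 1 of the other 4 samples. With Tβ-MCA against TCA 1 rose and 3 fell, against 2.22% and 1.29% of all genes, and the count was 15 without Tβ-MCA replicate 5 and 0 without any 1 of the other 5 samples. None was called for TCA against PBS, GCA against PBS or GCA against TCA, where 1, 3 and 2 genes had an unadjusted p under 0.05, and DESeq2 called none either.

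In the release and reacylation steps, 1 of 13 release genes rose and 1 of 13 reacylation genes fell with Tβ-MCA against PBS. Daglb, a diacylglycerol lipase, was 44.2, 43.4 and 47.6 CPM with PBS and 87.7, 77.4 and 57.4 CPM with Tβ-MCA, without overlap (log2 fold change 0.72, SE 0.13, edgeR adjusted p = 0.0208). It was also higher against TCA (0.65, SE 0.13, edgeR adjusted p = 0.0346). Lpcat4, a lysophospholipid acyltransferase, was 51.1, 40.9 and 33.7 CPM with PBS and 22.3, 18.7 and 28.7 CPM with Tβ-MCA (-0.85, SE 0.19, edgeR adjusted p = 0.0288). The Tβ-MCA samples lay below all PBS samples.

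Of 6 other prostanoid synthases tested none was called, and of 5 breakdown and transport genes 1 fell. Hpgd, the dehydrogenase that starts the breakdown of prostaglandins, had 30, 22 and 14 counts with PBS, 12, 18 and 20 with TCA, 8, 8 and 16 with GCA and 2, 4 and 4 with Tβ-MCA. The Tβ-MCA counts were at the limit of detection and below all other samples. The log2 fold change was -2.72 against PBS (SE 0.51, edgeR adjusted p = 0.0206) and -2.24 against TCA (SE 0.52, edgeR adjusted p = 0.0366). From the 10 counts summed over Tβ-MCA and 66 over PBS, the ratio per counted read was 0.154 with an exact 95% interval of 0.0705 to 0.301. This interval covers counting error only and takes each count as a separate event. Counts of 2 outnumbered counts of 1 by 2.93 to 3.62 times in the samples, so the interval may be too narrow even for counting error.

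Of 6 prostanoid receptors tested, 1 fell with Tβ-MCA against PBS. Ptgdr, a receptor of prostaglandin D2, had 22, 18 and 26 counts with PBS and 2, 9 and 6 with Tβ-MCA, which do not overlap (log2 fold change -1.96, SE 0.53, edgeR adjusted p = 0.039). The summed counts of 17 and 66 give a ratio of 0.262 (exact 95% interval 0.144 to 0.451, with the limits named for Hpgd). Ptger4, a receptor of prostaglandin E2, fell against TCA, from 12.1, 11.5 and 11.7 CPM to 9.33, 8.51 and 9.32 CPM (-0.38, SE 0.09, edgeR adjusted p = 0.0393), and had a log2 fold change of -0.23 against PBS (edgeR adjusted p = 0.125).

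In the leukotriene branch, 1 of 12 further lipoxygenases and leukotriene enzymes and 1 of 6 receptors fell with Tβ-MCA against PBS, and none of 5 breakdown and transport genes was called. Mgst1, a microsomal glutathione transferase related to Ltc4s, was 75.8, 74.4 and 71.8 CPM with PBS and 60.2, 60.4 and 62.2 CPM with Tβ-MCA (log2 fold change -0.28, SE 0.07, edgeR adjusted p = 0.032). Fpr2, a formyl peptide receptor that also binds lipoxins, was 77.5, 76.1 and 69.1 CPM with PBS and 34.4, 43.7 and 56.1 CPM with Tβ-MCA (-0.73, SE 0.15, edgeR adjusted p = 0.0235). The groups did not overlap for either gene. Cysltr1, a receptor of cysteinyl leukotrienes, fell against TCA, from 28, 44 and 48 counts to 6, 16 and 22 (-1.41, SE 0.35, edgeR adjusted p = 0.0437), with -1.10 against PBS (edgeR adjusted p = 0.0736). Exons of Fpr2 overlap those of Fpr3 on the same strand, and those of Daglb, Ptger4 and Ptgdr overlap a gene on the opposite strand, so that reads of these pairs cannot be told apart.

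**Figure D5:**
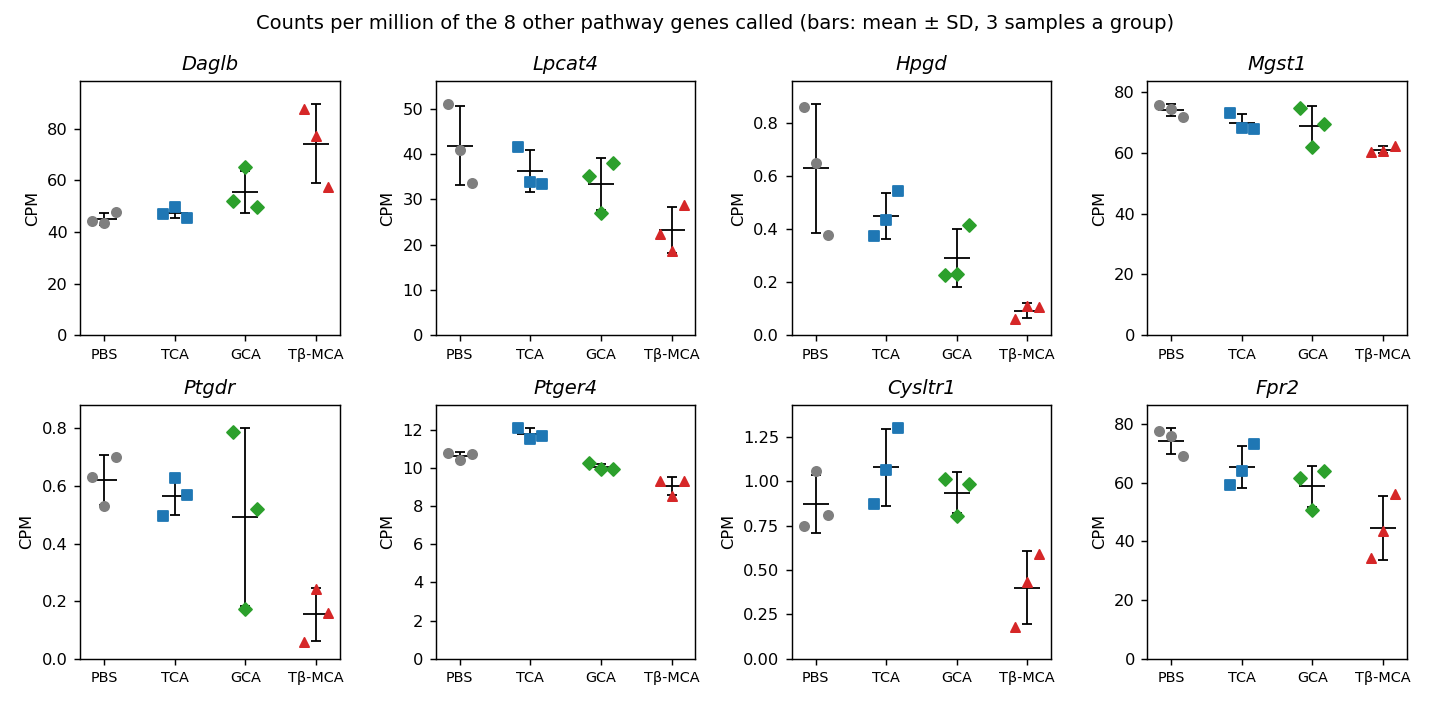
CPM of the 8 other pathway genes called with Tβ-MCA against PBS or TCA, with points for samples and a bar with whiskers for the mean ± SD of 3 samples. Daglb is highest and the other 7 genes are lowest in the Tβ-MCA group by mean, and the GCA mean lies between those of PBS and Tβ-MCA for 7 of the 8 genes, all but Cysltr1.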

How the data were processed

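The 10 genes, the gene lists and the tests were chosen with earlier results of these data known. Per the labels and the submitters' processing notes, the authors trimmed reads with Trimmomatic 0.36, aligned them with STAR 2.5.3a to GRCm38 (mm10) and counted them per gene with featureCounts of Subread 1.5.1, and they deposited these raw counts. The authors also deposited RPKM, which values recalculated from the counts matched within a relative difference of 1.3e-06. Columns headed GA were taken as GCA, as the series text uses this name for the third bile acid and the numbers match the sample titles. The library kit is stranded, the strand setting of the counting is not given in the sources used here, and counts of 2 outnumbered counts of 1 by 2.93 to 3.62 times.

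Counts were tested with edgeR 4.0.16 in R 4.3.3 (TMM, filterByExpr by group, robust quasi-likelihood test, no covariate), in 1 fit of all 12 samples, with Benjamini-Hochberg adjustment over 16761 genes and a threshold of 0.05. CPM used the TMM-scaled library size, and log2 CPM a prior count of 2. SE is that of the log2 fold change implied by the test. Named were the 10 genes, other pathway genes called in any of the 5 comparisons, genes that overlap a member, Jmjd7 and Gm28042, and the 5 genes most like Hpgds and Pla2g4b. Marker lists of 9 cell types were summed. The scripts were tested on simulated counts. Alternatives were DESeq2 1.42.0, limma 3.58.1 on log2(RPKM + 1) of genes whose mean was 0.5 RPKM or more, other scalings and filters, only the 2 groups compared, a replicate block, the cutoffs of the study (p under 0.05 without adjustment and 2-fold), and each sample left out.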

Additional observations from a re-analysis of the deposited data

How the results depend on the processing

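With Tβ-MCA against PBS, the 6 pathway genes called became 10 with DESeq2, 17 without a filter, 0 with only the 2 groups compared (12 with an unadjusted p under 0.05) and between 0 and 14 when 1 sample was left out. With Tβ-MCA against TCA, the 4 called became 9 with DESeq2, 17 without a filter, 2 with at least 10 counts in every sample, 0 with limma on RPKM, 7 at the cutoffs of the study, 0 with only the 2 groups compared and between 0 and 15 when 1 sample was left out. The causes were not tested. In 4 of 6 fits with 1 sample left out against PBS, and in 5 of 6 against TCA, no gene of the whole table was called. For the 10 members, 1 (Hpgds) was called without a filter for GCA against PBS and 1 (Hpgds) for GCA against TCA. That fit took all 29737 genes to share 1 trend of spread (an infinite prior weight for each gene), so the gene's own spread did not enter, whereas with the filter this held for 0 of 16761 genes. At the cutoffs of the study 1 pathway gene was called for GCA against PBS and 1 for GCA against TCA. Over the alternatives that tested a gene against PBS, Daglb and Lpcat4 were called in 9 of 14 and Fpr2 and Mgst1 in 8 of 14. Hpgd was called in 6 of 11 and Ptgdr in 4 of 11. Against TCA, Daglb was called in 7 of 14, Ptger4 in 6 of 14, Cysltr1 in 6 of 12 and Hpgd in 5 of 11. No value changed to the opposite direction among those called.

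Samples with the same replicate number deviated together with r between 0.0597 and 0.326 in 15 pairs, of which 12 were over 0.1. The mean was 0.189 in these pairs, against -0.0716 in 39 pairs with different numbers. Not every pair passed 0.1 and no source says what a number marks, so the numbers were not taken as pairs. With the number as a replicate block, the pathway genes called were 6 for Tβ-MCA against PBS and 15 for Tβ-MCA against TCA, and 0 members were called in the other comparisons. Of 6 samples each, 5 correlated best with their own number for Tβ-MCA and TCA and 4 for GCA and TCA. PBS shares 2 numbers with each bile acid.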

Other observations

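The marker lists not described above showed these sums with PBS and with Tβ-MCA. Dendritic cell markers summed to 29.1 to 37.4 CPM with PBS and 19.98 to 28.99 CPM with Tβ-MCA. Of the 6 tested none was called, and their median log2 fold change was 0.02. Most of each sum was Flt3, at 27.7, 20.9 and 21.1 CPM with PBS and 16.8, 12.3 and 20.6 CPM with Tβ-MCA. It was the only 1 below PBS without overlap. Megakaryocyte and platelet markers summed to 51.8 to 58.6 and 51.7 to 53.8 CPM. B cell markers summed to 40.8 to 57.0 and 38.1 to 42.4 CPM. Of the 7, 1 was called lower (edgeR's quasi-likelihood test) and 2 lay below PBS without overlap, against 3.18% and 12.8% of all genes. Erythroid markers summed to 1.52 to 2.67 and 1.80 to 2.38 CPM, and T and NK cell markers to 1.89 to 2.83 and 1.41 to 1.93 CPM.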
